A study of Homo sapiens with 18 samples.

Results

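H3K9me3 regions gained after maltonis were defined as merged regions in which all 3 maltonis libraries, and none of the 3 untreated libraries, had a called peak. Peaks of the 6 H3K9me3 lists were merged wherever they overlapped by at least 1 bp on chromosomes 1 to 22, which gave 46568 merged regions, and 365 of them followed this pattern (0.784%). The reverse pattern, a peak in all 3 untreated lists and in no maltonis list, was found in 1067 regions (2.29%). Both counts depended on the unequal lengths of the lists: with equal numbers of peaks per list 574 regions were gained and 537 lost, and with a common lowest island score 448 and 657. The gained regions were then divided by whether they touched a region of H3K4me3 called in at least 2 of 3 libraries of either condition. Such a region was touched by 219 (on H3K4me3) and not by 146 (off H3K4me3). No H3K4me3 peak was called in any library at 124 of the 146.

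The cells were NB4, a line established from a human acute promyelocytic leukemia and used as an in vitro model of this disease. They were either left untreated or kept with maltonis, which was synthesized from maltol, at 10 µM for 24 h, and no other treatment or genotype separated the groups. H3K9me3, H3K4me3 and H3K27ac were each profiled by ChIP-seq in 3 biological replicates per condition, 18 libraries in all. Reads inside peaks ranged from 2584920 to 3344547 per H3K9me3 library and from 17659587 to 20412339 per H3K27ac library, and the H3K4me3 lists hold no read counts. All results refer to a single cell line and a single dose and time.

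H3K9me3 is a repressive modification of the histone H3 tail, laid down by methyltransferases such as SUV39H1 and SETDB1 and read by the HP1 proteins, which compact chromatin. It covers repeats, pericentromeric DNA and silent gene clusters, often as long domains. H3K4me3 marks active and poised promoters, and H3K27ac marks active promoters and enhancers, so H3K9me3 and H3K4me3 are usually found at different places in the genome. A called overlap in a cell population does not tell whether both marks sit on the same nucleosome, the same allele or the same cell.

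More gained regions lay on H3K4me3 than off it. Of the 365 gained regions, 60.0% lay on H3K4me3 (95% Wilson interval 54.9 to 64.9). This majority was lost when a maltonis library was left out, so that fewer lists had to follow the rule. It was then 45.3%, 44.8% and 42.6% without maltonis replicates 1, 2 and 3. With all libraries, the share on H3K4me3 was 6.84% for the 1067 lost regions (5.48 to 8.52), 13.6% for the 14165 regions called in all 6 lists (13.0 to 14.1), and 12.1% for all merged regions (11.8 to 12.4). The intervals cover counting error only, because regions are not replicates. The gained set was chosen on the H3K9me3 lists and the H3K4me3 reference came from other libraries, so the overlap itself was not used by the rule.

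Regions that only partly followed the rule had intermediate shares. Without any untreated peak, 15.4% of the 5566 regions called in 1 maltonis list and 29.9% of the 1044 regions called in 2 lay on H3K4me3. With all 3 maltonis lists, the share was 35.7% when 1 untreated list also had a peak (498 regions) and 20.0% when 2 had one (1179 regions). In the opposite direction no such rise was found, and regions without a maltonis peak stayed at 7.55%, 6.60% and 6.84% for 1, 2 and 3 untreated lists.

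**Figure D1:**
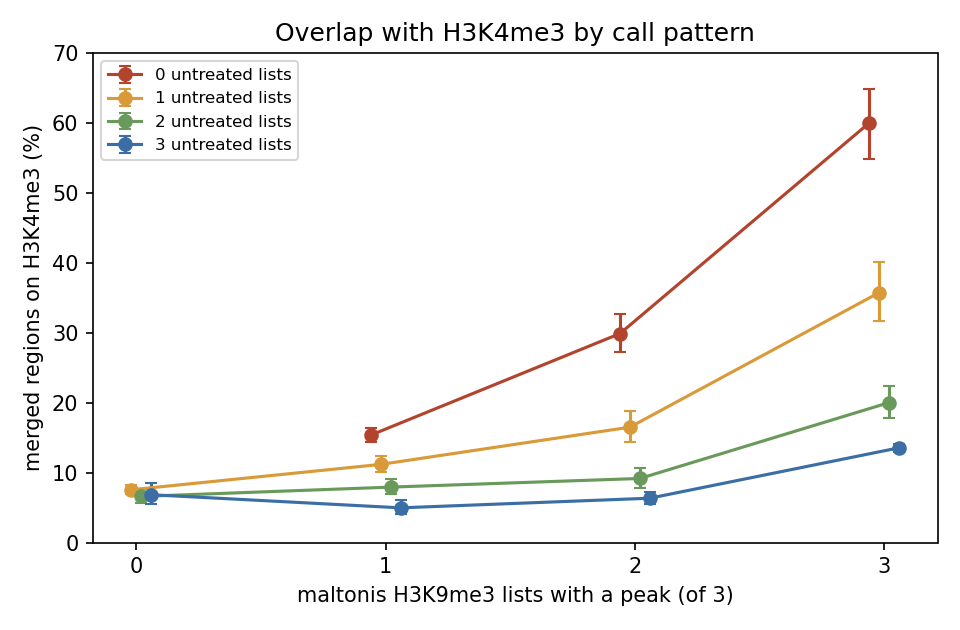
Percentage of merged H3K9me3 regions on H3K4me3 (vertical axis) by the number of maltonis lists with a peak (horizontal axis), one line per number of untreated lists with a peak; bars are 95% Wilson intervals. The gained regions are the rightmost point of the line for 0 untreated lists, at 60.0%, above the 13.6% of regions called in all 6 lists.

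Regions just outside the rule were weaker than the gained regions or close to them in strength, depending on the call pattern. The median island score, the score given by the peak caller, was 46.8 for the gained regions in the maltonis lists and 39.0 for regions called in 2 maltonis lists and no untreated list. Regions called in all 3 maltonis lists and 1 untreated list had a median score of 47.8 after maltonis and 37.7 in the untreated list that called them. The lowest island score in a list was between 28.8 and 28.9 in the untreated libraries and 33.6, 32.7 and 28.8 in maltonis replicates 1, 2 and 3, so 2 of the maltonis lists began at a higher score than any untreated list. The absence of an untreated peak states only that no island passed the caller there, since the lists hold no reads outside peaks.

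The same direction was seen over the whole lists from which the rule was built. Of all H3K9me3 peaks, 8.32%, 7.94% and 8.11% lay on H3K4me3 in untreated replicates 1, 2 and 3, and 11.4%, 11.2% and 11.1% in maltonis replicates 1, 2 and 3. All maltonis lists were above all untreated lists. In numbers of peaks, this was 2762 to 2827 peaks on H3K4me3 per untreated list and 3263 to 3357 per maltonis list, although the maltonis lists held fewer peaks in all (29277 to 29832, against 33643 to 34870). These values come from the lists used by the rule and are given without a test.

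H3K9me3 reads over the gained regions were modest, and denser on H3K4me3 than off it. On H3K4me3, the median was 18.6, 17.9 and 17.9 reads per kb of called length in maltonis replicates 1, 2 and 3, and off H3K4me3 it was 14.5, 13.8 and 13.4. The medians of both classes did not overlap between libraries. The called islands on H3K4me3 were shorter, with median lengths of 3200, 3000 and 2600 bp against 4200, 4200 and 3800 bp, while the median reads per island were similar (57, 55 and 48 on, 60, 56.5 and 49 off). After merging over the 3 lists, regions on H3K4me3 had a median width of 4400 bp (1400 to 14200) and regions off H3K4me3 of 6400 bp (1000 to 18200).

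On H3K4me3, the gained regions were nearly as dense as H3K9me3 regions called in all 6 lists, but shorter. The shared regions had 19.7 ± 0.30 reads per kb in untreated and 18.8 ± 0.44 in maltonis libraries (SD of the library medians, n = 3), next to 18.1 ± 0.43 for gained regions on H3K4me3. Gained regions off H3K4me3 had 13.9 ± 0.56, below the 17.3 ± 0.51 of shared regions off H3K4me3 after maltonis. The called length of shared regions on H3K4me3 was 7200 ± 529 bp after maltonis, against 2933 ± 306 bp for the gained regions on H3K4me3. Lost regions on H3K4me3 were as short in the untreated lists (3067 ± 115 bp) and had 16.2 ± 0.52 reads per kb. Within the maltonis lists, the island score of gained regions stood at the percentile 43.8 ± 1.4 on H3K4me3 and 30.2 ± 2.3 off it, while shared regions on H3K4me3 stood at 82.7 ± 0.36, and lost regions on H3K4me3 at 34.7 ± 3.0 in the untreated lists.

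**Figure D2:**
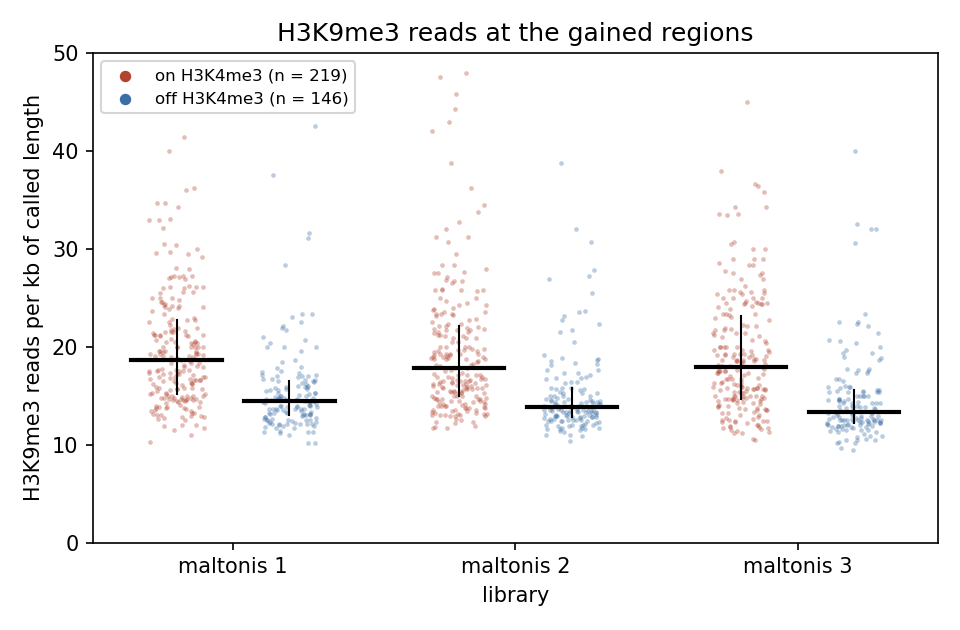
H3K9me3 reads per kb of called length (vertical axis) in each maltonis library (horizontal axis) for every gained region; thick lines are medians and thin lines the interquartile range of the regions. In each library the 219 regions on H3K4me3 lie higher (medians 18.6, 17.9 and 17.9) than the 146 off H3K4me3 (14.5, 13.8 and 13.4).

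The gained regions varied widely among themselves. The mean over the 3 maltonis libraries ran from 12.3 to 41.3 reads per kb on H3K4me3 and from 10.3 to 36.1 off it, and 37 of the 365 regions reached 25 reads per kb, 32 of them on H3K4me3. Ordered by reads per kb and divided into 4 groups of 91 or 92 regions, 21.7% of the lowest group and 87.9% of the highest lay on H3K4me3, with 51.6% and 79.1% between them. Ordered by width, the narrowest group was 81.5% on H3K4me3 and the widest 29.7%. Density and width were themselves related, with a Spearman rho of −0.69 across the 219 regions on H3K4me3, which share libraries and are not independent replicates. The median coefficient of variation between the 3 maltonis libraries was 15.7% on H3K4me3 and 11.9% off it.

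The densest gained region was chr9:37078601-37080000, on H3K4me3, with 33.0, 45.8 and 45.0 H3K9me3 reads per kb in maltonis replicates 1, 2 and 3. These densities rested on 33, 55 and 36 reads over 1000, 1200 and 800 bp. The H3K4me3 region at this place was 1192, 1207 and 1113 bp wide in untreated libraries and 1421, 1347 and 1362 bp wide in maltonis libraries, and the nearest untreated H3K9me3 peak was 38600 bp away. All 3 maltonis widths were above the untreated ones, but the difference did not pass the call (log2 change 0.23 ± 0.05 SE, limma, adjusted p = 0.0162).

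The gained region with the highest island score was chr15:41950601-41954600, which was also second in density among those on H3K4me3. It held 104, 115 and 93 H3K9me3 reads, or 34.7, 44.2 and 27.4 reads per kb, in the 3 maltonis libraries. H3K27ac reads there were 1423, 1366 and 1360 in untreated and 1265, 1395 and 1296 in maltonis libraries, so both conditions overlapped (log2 change −0.03 ± 0.04 SE, edgeR, adjusted p = 0.623).

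The next regions on H3K4me3 by density differed in what happened to H3K27ac. At chr6:108883201-108884600 (24.3, 42.0 and 36.7 H3K9me3 reads per kb) and chr1:154908201-154910800 (29.6, 34.4 and 38.0), H3K27ac changes of −0.28 and −0.42 on the log2 scale were below the size required for a call. With called length as an offset, the second of these reached it (−0.61, edgeR, adjusted p = 0.00377). At chr3:156532201-156535400 (41.4, 23.8 and 36.4 H3K9me3 reads per kb), H3K27ac reads were 2148, 2233 and 2236 in untreated and 3732, 4278 and 4052 in maltonis libraries, a rise of 0.91 ± 0.03 on the log2 scale (SE, edgeR, adjusted p = 1.12e-08). At chr12:4381201-4384200 (27.9, 48.0 and 25.4 H3K9me3 reads per kb), they were 3583, 3693 and 3581 against 1639, 1855 and 1735, a log2 change of −1.01 ± 0.03 (SE, edgeR, adjusted p = 8.89e-09). Gained H3K9me3 was called both at places where H3K27ac was higher and at places where it was lower.

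The remaining regions among the 10 densest on H3K4me3 showed the same variety. H3K27ac at chr19:54973401-54976200 fell from 830, 736 and 836 reads to 364, 426 and 387 (log2 change −0.99 ± 0.08 SE, edgeR, adjusted p = 3.17e-06). This region was also the farthest of the 10 from an untreated H3K9me3 peak, at 353800 bp. At chr20:35088401-35090000, chr1:33501201-33507800 and chr11:67248801-67251600 the H3K27ac log2 changes were −0.04, 0.02 and 0.06, and none was called. Of these, chr1:33501201-33507800 had the least even H3K9me3, with 29.2, 47.5 and 15.0 reads per kb over called lengths of 2400, 800 and 5800 bp.

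Off H3K4me3, the 6 densest gained regions were mostly short. The first, chr19:1568601-1569600, had 30, 31 and 32 H3K9me3 reads over 800, 800 and 1000 bp, and neither H3K4me3 nor H3K27ac was called there in any library. The other 5 touched H3K27ac regions. At chr1:11800801-11802200 the H3K27ac reads fell from 4165, 4458 and 4253 to 1878, 2062 and 1983 (log2 change −1.08 ± 0.03 SE, edgeR, adjusted p = 8.40e-09), and at chr16:88518401-88519400 from 1766, 1801 and 1940 to 992, 1067 and 895 (−0.86 ± 0.06, adjusted p = 1.52e-06). At chr2:74059401-74061200 they rose from 979, 1065 and 1014 to 1731, 1998 and 1957 (0.94 ± 0.04, adjusted p = 1.19e-07). When called length was added as an offset, none of these 3 changes reached the size required for a call (−0.49, −0.49 and 0.33). At chr19:6425401-6426800 and chr3:128585001-128588000 the changes were 0.01 and 0.41, neither of them called.

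The widest gained regions were less dense. On H3K4me3 it was chr11:95973601-95987800, 14200 bp after merging, with 14.0, 11.7 and 11.8 H3K9me3 reads per kb. Off H3K4me3 it was chr9:14058801-14077000, 18200 bp, with 13.6, 12.03 and 12.7 reads per kb and no peak of either active mark in any library. The weakest gained region by island score was chr7:47331401-47335800, with 50, 39 and 38 reads and an untreated H3K9me3 peak only 600 bp away.

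The distance to H3K9me3 already present was similar for gained regions and for those called in fewer maltonis lists. The nearest untreated H3K9me3 peak was a median of 15600 bp from gained regions on H3K4me3 (interquartile range 6400 to 30600) and 11600 bp from those off it (3700 to 28000). Within 5 kb of such a peak lay 46 of the 219 regions on H3K4me3 (21.0%) and 46 of the 146 off it (31.5%). For regions without an untreated peak that were called in 1 maltonis list, the shares were 20.2% on and 29.0% off H3K4me3, and for those called in 2 lists 22.1% and 32.5%. Only 16 gained regions on H3K4me3 and 6 off it were more than 100 kb from an untreated peak.

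H3K4me3 sat near the middle of the gained regions that touched it. The centre of the H3K4me3 region was a median of 722 bp from the centre of the gained region, and it was within 1000 bp in 134 of 219 regions (61.2%). In 150 of 219 (68.5%) it fell closer to the centre of the region than to its nearer edge, and in 143 (65.3%) the H3K4me3 region lay wholly inside the H3K9me3 region. A single H3K4me3 region was touched by 216 of the 219. The H3K9me3 region was the wider of the pair in 208.

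This position differed from that in H3K9me3 regions called in all 6 lists. There the median centre distance was 3020 bp, and H3K4me3 was closer to the centre than to the edge in 44.1% of 1920 regions. Since shared regions are wider, the comparison was repeated on the 193 shared regions whose width lay in the interquartile range of the gained regions on H3K4me3 (3200 to 5600 bp). In these the median distance was 1323 bp, 38.3% were within 1000 bp, and 45.6% had H3K4me3 closer to the centre than to the edge. The gained regions were not limited to these widths, and their values cover all 219, so distances in bp are not fully matched for width. Lost regions on H3K4me3 gave 1422 bp and 41.1% (73 regions).

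**Figure D3:**
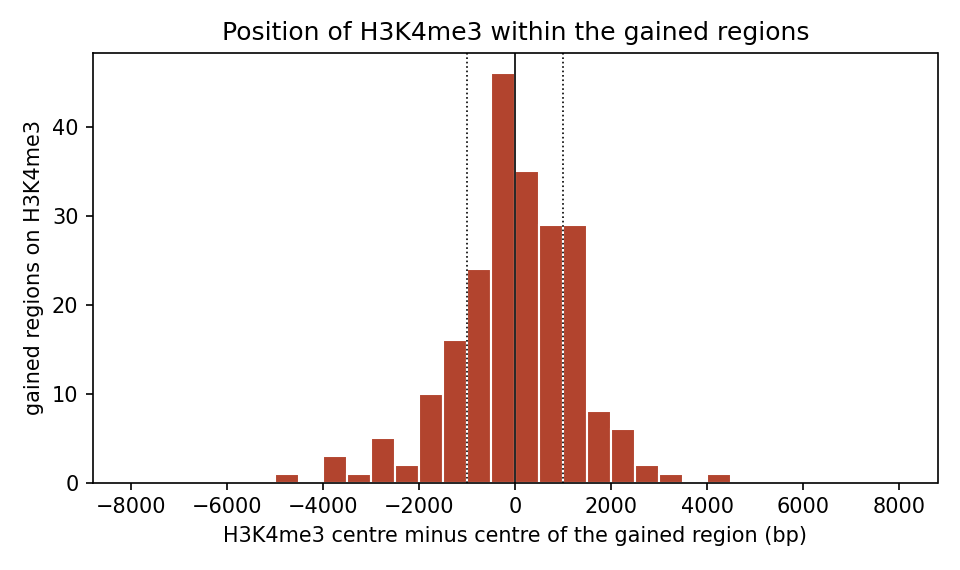
Distance in bp from the centre of each gained region on H3K4me3 to the centre of the H3K4me3 region it touches most (horizontal axis, bins of 500 bp) and number of regions (vertical axis); dotted lines mark 1000 bp on either side. The distances gather around 0, and 134 of 219 regions lie between the dotted lines.

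H3K27ac was already present at nearly all gained regions on H3K4me3. An H3K27ac peak was called in all 6 libraries at 207 of 219 (94.5%, 95% Wilson interval 90.7 to 96.8), and in no library at 3. The corresponding share was 88.3% for shared (86.8 to 89.7) and 91.8% for lost regions on H3K4me3 (83.2 to 96.2). Off H3K4me3, only 16 of 146 gained regions had H3K27ac in all 6 libraries (11.0%, 6.86 to 17.1) and 115 had it in none. This was near the 11.2% of shared and the 10.8% of lost regions off H3K4me3.

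Few gained regions lost or acquired an active mark as a whole, as was also the case for shared regions. On H3K4me3, 4 gained regions had H3K27ac in all 3 untreated and no maltonis library (1.83%, beside 2.14% of shared regions on H3K4me3), and none had the reverse (0.260% of shared regions). H3K4me3 peaks were called in all 6 libraries at 185 of the 219 regions, only in the 3 untreated libraries at 3 (1.37%, beside 2.24% of shared regions), and only in the 3 maltonis libraries at 2 (0.913%, beside 1.93%). Off H3K4me3, 3 regions had H3K27ac only in the 3 untreated libraries (2.05%, beside 1.93% of shared regions off H3K4me3).

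The question of whether H3K27ac changed where H3K9me3 was gained was tested on read counts. Of 19504 H3K27ac regions called in all 6 libraries, edgeR called 1570 higher (8.05%) and 3804 lower (19.5%) after maltonis, at an FDR of at most 0.01 and a log2 change of at least 0.58 in size. Among the 205 that touched a gained region on H3K4me3, 15 were higher (7.32%), 25 were lower (12.2%) and 165 were not called. Their median log2 change was 0.05, beside −0.02 over all regions tested and 0.00 over the 1910 that touched shared H3K9me3 regions on H3K4me3, of which 127 were higher and 327 lower. Among the 23 regions that touched a gained region off H3K4me3, 3 were higher and 5 were lower, with a median of 0.01.

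The summed reads of an H3K27ac region move with its called length, which differed between libraries. When called length entered the fit as an offset, 8 regions on H3K4me3 were higher (3.90%, beside 2.18% of all regions tested) and 12 lower (5.85%, beside 4.61%), and 13 of the 40 calls made on summed reads remained in the same direction (4 higher and 9 lower). Off H3K4me3 none of the 23 regions was called by edgeR in that fit, although 14 had an unadjusted p under 0.05 (60.9%, beside 37.1% of all regions).

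The largest H3K27ac rises on H3K4me3 were in 2 places. At chr12:111331801-111334600, H3K27ac reads were 444, 466 and 453 in untreated and 1036, 1055 and 1107 in maltonis libraries, a log2 change of 1.28 ± 0.06 (SE, edgeR, adjusted p = 2.31e-07). H3K4me3 moved otherwise there, being called in all 3 untreated libraries and in only 1 maltonis library. The gained regions chr6:26042601-26047400 and chr6:26210601-26221000 lay in a single H3K27ac region, chr6:25999401-26289400, which held 33386, 34275 and 33851 reads in untreated and 67939, 77668 and 72980 in maltonis libraries (1.15 ± 0.01, adjusted p = 4.94e-11). Another gained region lay in the same H3K27ac region, so these 3 share 1 measurement. This part of the short arm of chromosome 6 is known for its large cluster of replication-dependent histone genes.

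The largest H3K27ac decreases were in smaller regions. At chr5:54521201-54530800, reads were 266, 240 and 220 in untreated and 71, 79 and 60 in maltonis libraries, a log2 change of −1.75 ± 0.17 (SE, edgeR, adjusted p = 1.40e-05). At chr20:48208801-48213000 they were 518, 589 and 510 against 139, 179 and 186 (−1.64 ± 0.11, adjusted p = 1.79e-06), and at chr15:41217401-41224400 they were 597, 553 and 496 against 200, 140 and 189 (−1.59 ± 0.17, adjusted p = 2.54e-05). In each of the 3 regions all maltonis values were below all untreated values. H3K4me3 peaks touched chr20:48208801-48213000 in 2 untreated libraries and 1 maltonis library, and chr15:41217401-41224400 in 3 and 2.

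**Figure D4:**
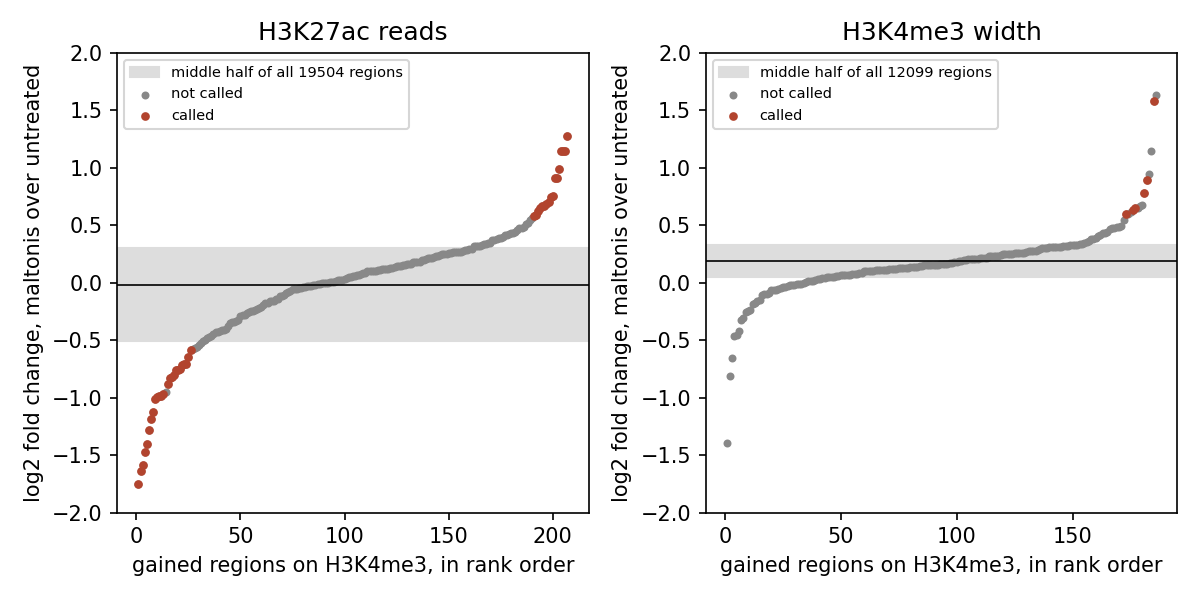
Log2 fold change, maltonis over untreated, of the H3K27ac reads (left) and the H3K4me3 called width (right) at each gained region on H3K4me3 in rank order; coloured points passed the call, the grey band is the interquartile range of all regions tested and the black line their median. Most gained regions lie within or near the band, with medians of 0.05 for H3K27ac reads and 0.16 for H3K4me3 width.

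H3K27ac density was also compared as one value per library. The median H3K27ac density over the 205 regions on H3K4me3 was 114, 111 and 116 reads per kb in untreated and 111, 132 and 126 in maltonis libraries. The conditions overlapped, and the difference of 9.12 reads per kb did not pass an exact two-sided permutation test (p = 0.4, adjusted p = 0.56 over a set of 7 such tests). The smallest possible p with 3 against 3 libraries is 0.1. Permutation p-values printed without an adjusted p lie outside this set and are unadjusted. Off H3K4me3 the values were 81.3, 78.3 and 92.5 against 86.9, 103.8 and 92.7, which gave a difference of 10.5 (exact permutation p = 0.2, adjusted p = 0.35). After division by the reads in peaks of each library, as reads per kb per 1e+06 reads, the conditions on H3K4me3 no longer overlapped, at 5.80 ± 0.21 without and 6.47 ± 0.18 with maltonis (SD, n = 3, exact permutation p = 0.1), and the same held over all H3K27ac regions (4.00 ± 0.09 and 4.35 ± 0.15).

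H3K27ac regions at gained regions on H3K4me3 were called shorter after maltonis, as were H3K27ac regions in general. Their median called width was 12600, 13600 and 12800 bp in untreated and 11400, 11200 and 10800 bp in maltonis libraries, and all maltonis values were below all untreated ones (exact permutation p = 0.1, the smallest possible). Off H3K4me3 the widths were 20000, 17800 and 20000 bp against 21600, 19000 and 18800 bp, and the conditions overlapped (exact permutation p = 0.8). Over all regions tested the means were 6267 ± 231 and 5133 ± 306 bp (SD, n = 3), so the H3K27ac regions at gained H3K9me3 on H3K4me3 were wide ones in both conditions. Their density was also higher than that of all regions, which was 78.5 ± 0.04 reads per kb in untreated and 82.7 ± 7.0 in maltonis libraries. H3K27ac regions at shared H3K9me3 on H3K4me3 lay in between in both measures. They had 8600 ± 346 and 7267 ± 231 bp, and 101 ± 1.0 and 108 ± 9.2 reads per kb, in untreated and maltonis libraries.

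H3K4me3 was called wider after maltonis at gained regions, and over the genome as a whole, in every library. Over the 189 H3K4me3 regions called in all 6 libraries that touched a gained region, the median width was 1644, 1646 and 1620 bp in untreated and 1811, 1857 and 1895 bp in maltonis libraries. The conditions did not overlap, and the difference was 218 bp (exact permutation p = 0.1, the smallest possible, adjusted p = 0.35). Over all 12099 H3K4me3 regions tested the medians were 1471 ± 19 and 1724 ± 23 bp (SD, n = 3), a difference of 253 bp. In the limma fit on log2 width, 6 of the 189 were wider (3.17%, beside 3.57% of all regions) and 0 were narrower (0.289% of all), with 95 at an unadjusted p under 0.05 (50.3%, beside 51.9% of all). Their median log2 change was 0.16, beside 0.19 over all regions and 0.16 over regions at shared H3K9me3. Relative to that general shift, with widths centred on each library's median, 1 of the 189 was wider (0.612% of all regions) and 1 was narrower (0.413% of all). Without untreated replicate 2 or without maltonis replicate 3, 3 of the 189 were wider (1.59%). Calls over all regions were also fewer then, at 2.51% and 1.98%.

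Of the 6 widened H3K4me3 regions, 3 are given here. At chr11:111796001-111799200 the widths were 824, 531 and 500 bp in untreated and 1806, 1584 and 2049 bp in maltonis libraries, a log2 change of 1.58 ± 0.22 (SE, limma, adjusted p = 0.00595). At chr11:68776201-68780600 they were 1442, 1429 and 1296 bp against 2553, 2550 and 2623 bp (0.89 ± 0.05, adjusted p = 0.00109), and at chr6:6883201-6891000 they were 968, 871 and 878 bp against 1408, 1650 and 1610 bp (0.78 ± 0.08, adjusted p = 0.00286). After centring, the call remained only at chr11:68776201-68780600 (0.66). The call at chr11:111796001-111799200 needed every library but untreated replicate 1 (adjusted p = 0.0200 to 0.0226 without any of the others), and that at chr6:6883201-6891000 every library but untreated replicate 1 and maltonis replicate 1 (0.0130 to 0.0141). H3K27ac reads at the 3 places changed by 0.23, −0.47 and 0.43 on the log2 scale, all below the size of a call.

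The fold enrichment given by the H3K4me3 caller was lower after maltonis at gained regions, at 4.37, 4.36 and 4.24 in untreated and 3.92, 4.05 and 3.96 in maltonis libraries. The conditions did not overlap (difference −0.35, exact permutation p = 0.1, adjusted p = 0.35). Over all regions the corresponding means were 4.65 ± 0.06 and 4.17 ± 0.08 (SD, n = 3). Ranked within each list by q-value, the H3K4me3 regions at gained H3K9me3 stood at the percentile 63.3 ± 1.1 in untreated and 63.3 ± 0.87 in maltonis libraries (exact permutation p = 1, adjusted p = 1), while the median of all regions called in 6 lists stood at 64.6 ± 0.44 and 61.3 ± 0.67.

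**Figure D5:**
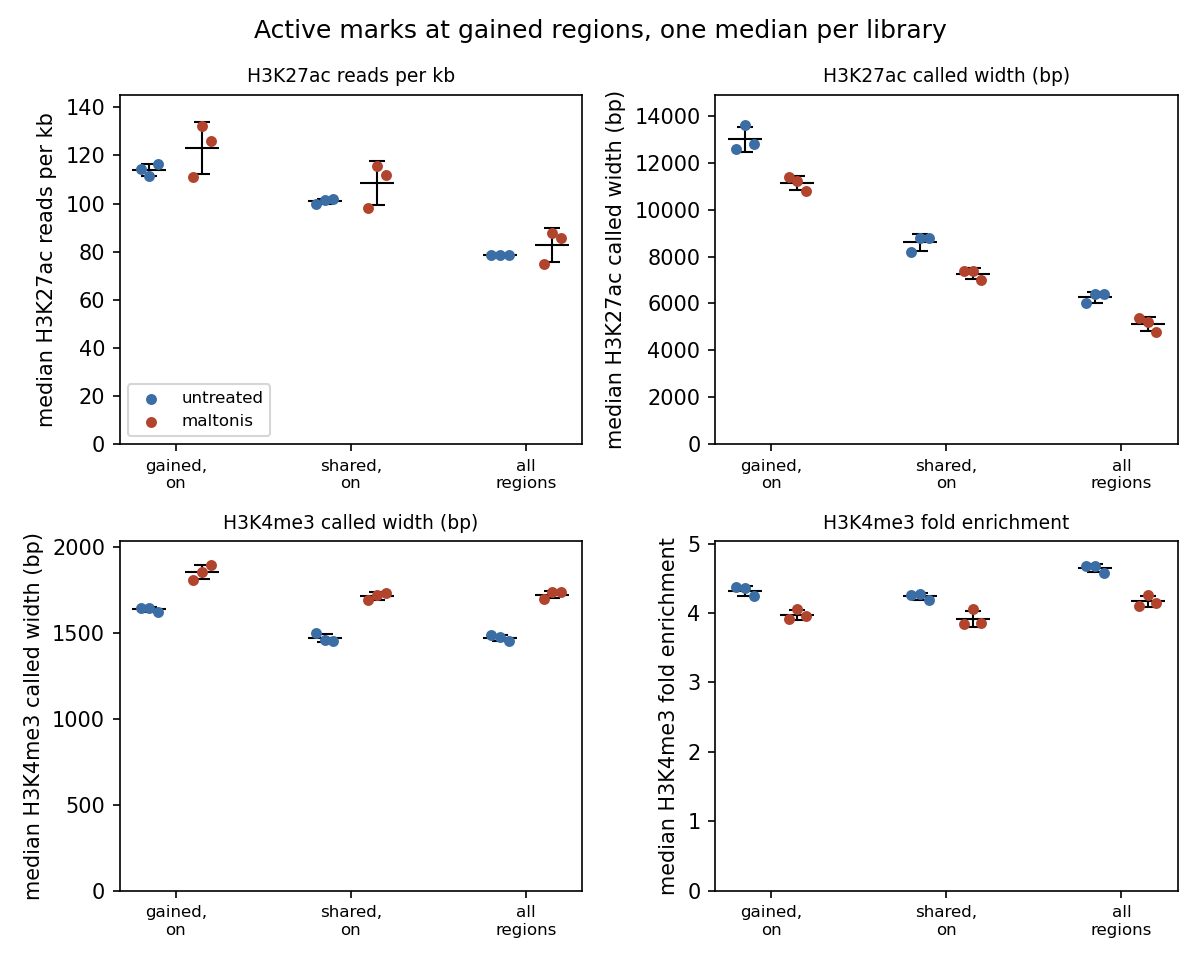
Library medians of H3K27ac reads per kb, H3K27ac called width, H3K4me3 called width and H3K4me3 fold enrichment (vertical axes) at regions touching gained H3K9me3 on H3K4me3, touching shared H3K9me3 on H3K4me3, and over all regions called in 6 libraries; points are libraries, black marks the mean ± SD of 3. H3K4me3 widths after maltonis lie above the untreated ones in all 3 sets, and H3K27ac reads per kb overlap between the conditions in all 3.

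Whether the active marks changed differently at gained and at shared H3K9me3 was tested within libraries. H3K4me3 was wider at gained than at shared regions by 144, 188 and 167 bp in untreated and by 121, 134 and 163 bp in maltonis libraries, a change of −27 bp between conditions (exact permutation p = 0.2, adjusted p = 0.35). H3K27ac was denser at gained than at shared regions by 14.4, 9.90 and 14.6 reads per kb in untreated and by 13.0, 16.6 and 14.2 in maltonis libraries, a change of 1.62 (exact permutation p = 0.6, adjusted p = 0.70). In both measures the conditions overlapped. As a log2 ratio of the medians, gained over shared, H3K4me3 width did not overlap by a narrow margin (0.132 against 0.130), at 0.13, 0.17 and 0.16 in untreated and 0.10, 0.11 and 0.13 in maltonis libraries (difference −0.04, exact permutation p = 0.1, the smallest possible).

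Within the gained regions, the amount of H3K9me3 was hardly related to the active marks. Across the 207 regions on H3K4me3 with a tested H3K27ac region, H3K9me3 reads per kb and H3K27ac reads per kb had a Spearman rho of 0.01, and H3K9me3 reads per kb and the H3K27ac log2 change a rho of −0.13. Across 186 regions with a tested H3K4me3 region, the rho was −0.15 with H3K4me3 width and 0.16 with its fold enrichment. The H3K27ac log2 change and the H3K4me3 width change had a rho of 0.23 across 184 regions. These points share libraries and in places H3K27ac regions, and are given as a description.

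Gained regions occurred on all 22 autosomes, and both those on and those off H3K4me3 were unevenly placed. Per 1000 merged H3K9me3 regions, 22.4 were gained on chromosome 22 (10 of 446) and 2.19 on chromosome 8 (3 of 1371). Chromosome 11 held 24 regions on H3K4me3, the most of any chromosome, and 6 off it. Of these 24, 13 lay at 50 to 75 Mb, beside 1.31% of all merged regions. Chromosome 17 held 15 regions on H3K4me3, beside 2.32% of merged regions, and chromosome 4 held 2, beside 5.84%. Chromosome 9 held 22 regions off H3K4me3 and only 6 on it. The first 50 Mb of chromosome 9 alone held 20 of the 146 regions off H3K4me3 (13.7%), although 3.43% of all merged regions lie there, and 4 of the 219 on H3K4me3 (1.83%). The first 50 Mb of chromosome 7 held 13 regions off H3K4me3 (8.90%, beside 4.13% of merged regions), and 100 to 125 Mb of chromosome 12 held 11 (7.53%, beside 2.14%). These stretches were picked after their counts had been seen.

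In the same stretch of chromosome 9, H3K9me3 regions called in all 6 lists were also denser after maltonis relative to other shared regions. Before centring, the density of shared regions was lower after maltonis, at 17.3 against 18.7 reads per kb off H3K4me3 and 18.8 against 19.7 on it. The values below are therefore relative and do not state a rise in reads per kb. Against the mean of the untreated libraries, and with each library centred on its own median, their median log2 density was 0.07, 0.08 and 0.09 in maltonis replicates 1, 2 and 3, and between −0.01 and 0.01 in untreated replicates (479 regions). The difference was 0.09, beside 0.01 over all 14165 shared regions, 0.03 in the first 50 Mb of chromosome 7 (621 regions), 0.03 at 100 to 125 Mb of chromosome 12 (268 regions) and −0.03 in the rest of chromosome 9 (265 regions). Shifts of this size also occurred where few or no regions off H3K4me3 were gained, with 0.07 over chromosome 19 (451 shared regions, 2 gained off H3K4me3), 0.09 at 25 to 50 Mb of chromosome 19 (129 shared, 0 gained off) and 0.05 at 25 to 50 Mb of chromosome 12 (248 shared, 0 gained off). The part of this shift in the number of gained regions was not tested.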

How the data were processed

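ChIP-seq peak lists of 18 NB4 libraries were used, 1 list per library and no pooling. The authors called H3K4me3 peaks with MACS2 in broad mode; the deposited lists carry a score, a fold enrichment (a ratio over local background), and −log10 p and q-values. The authors called H3K9me3 and H3K27ac with epic2, which joins enriched 200 bp windows; the deposited lists carry an unnormalised read count and an island score per called region. The submitters' processing notes name BWA, SAMtools, MACS2, SICER and hg19; versions and control counts are not given in the sources used here. Coordinates are hg19, counted from 1. No genome or annotation of that build was at hand, so gene names, gene lists and sequences were not analysed here.

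Peaks on chromosomes 1 to 22 were merged per mark. The H3K4me3 reference held 16496 merged regions called in at least 2 of 3 libraries of either condition. Summed H3K27ac counts in regions called in all 6 libraries were tested with edgeR 4.0.16 (quasi-likelihood, TMM), and log2 H3K4me3 widths with limma 3.58.1, both with Benjamini-Hochberg adjustment over all regions tested; calls needed an FDR of at most 0.01 and a log2 change of at least 0.58, the criteria of the study. Both fits were tested on simulated data with 200 changed regions. Of changes of log2 size 1, edgeR recovered 77% and limma 66%. At size 2 they recovered 100% and 84%, with 3 and 2 false calls in all. Smaller changes were not simulated, so a region without a call may still have changed. For library values, an exact permutation test (two-sided) enumerated the 20 assignments of libraries to conditions. Its p is the share of assignments with a difference at least as large as the observed one. All tests rest on 3 replicates per condition. H3K9me3 values of the gained regions were used by the rule and carry no test.

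The regions and tests were chosen with earlier results of these data known. Named were the 10 gained regions on and the 6 off H3K4me3 with the most H3K9me3 reads per kb, the 3 on H3K4me3 with the largest and smallest called change in H3K27ac reads and in H3K4me3 width, the widest of each class and the weakest. Alternatives covered peak merging, thresholds, overlap, normalisation (DESeq2 1.42.0 included), a replicate block and leaving out each library.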

Additional observations from a re-analysis of the deposited data

How the results depend on the processing

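The number of gained regions was 574 instead of 365 with equal numbers of peaks per list, where lost regions numbered 537 instead of 1067, so that gained outnumbered lost. With a common lowest island score there were 448 gained and 657 lost. The number gained was 504 to 760 when 1 library was left out, since fewer lists then had to follow the rule (560 and 565 without untreated replicates 2 and 3, and 735, 728 and 760 without maltonis replicates 1, 2 and 3). The share on H3K4me3 was 53.5% with equal numbers of peaks, 64.9% with the strongest 75% of peaks, 51.2% with H3K4me3 regions called in all 6 libraries, and 42.6% to 54.4% when 1 library was left out, beside 6.08% to 6.66% of lost regions. H3K27ac calls at gained regions were 8 higher and 12 lower on H3K4me3 when called length was an offset, and 0 and 0 off it. Where lengths differed by at most 20% between libraries, 31 regions on H3K4me3 gave 1 higher and 2 lower, and 7 off it gave 1 and 1. Of all 1287 regions of such similar length, 27 were higher (2.10%) and 47 lower (3.65%). H3K4me3 calls were 1 wider and 1 narrower after centring. As a log2 ratio, the difference between gained and shared regions in H3K4me3 width changed by −0.04 and separated the conditions. Leaving out untreated replicate 2 or maltonis replicate 3 left 3 wider H3K4me3 regions of 6 (1.59% of those tested, beside 2.51% and 1.98% of all regions). Leaving out other libraries gave up to 7 (3.70% without untreated replicate 1, beside 2.79% of all regions). The within-library difference between gained and shared regions in H3K27ac reads per kb reversed to −1.78 when shared regions of similar width were used (exact permutation p = 0.7); the cause was not tested. With a replicate block, H3K27ac calls were 15 higher and 25 lower as before, and 0 H3K4me3 widths were called by limma among all 12099 regions. In that limma fit, 80 of 189 were at an unadjusted p under 0.05 (42.3%, beside 45.8% of all regions). No pairing by replicate number was seen in these values, and the sample titles do not state whether there was one. The correlation of same-numbered deviations was 0.004, 0.031 and 0.002 for H3K27ac and −0.009, −0.004 and −0.008 for H3K4me3.

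Peak lists bound what can be said. They hold no reads outside peaks, so the H3K9me3 signal of untreated cells at gained regions is unknown, and library totals were not used here. Counts of 25 to 201 reads per gained region and library limit the precision of single densities. Called widths and summed counts depend on the depth and threshold of each list.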
